A study of Homo sapiens with 10 samples.

Results

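Krüppel-like factors (KLFs) are transcription factors that bind GC-rich and CACCC-type sites in promoters through zinc fingers at their C-terminus. Some members mainly activate genes, others recruit co-repressors such as CtBP or SIN3A, and several are made quickly and decay quickly when cells meet growth factors or stress. The genes described are 9 KLF genes, KLF3, KLF4, KLF5, KLF6, KLF9, KLF10, KLF11, KLF13 and KLF16, taken by gene symbol out of 31015 genes with an interval in the deposited tables. KLF5 and KLF6 are best known in the prostate, KLF5 as a regulator of epithelial growth and KLF6 as a candidate tumor suppressor.

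RNA was measured in 22RV1, an established cell line of castration-resistant prostate cancer, with SLAM-seq. In this method cells take up 4-thiouridine (4sU) for a short time before RNA is purified, and alkylation then makes the labelled T positions appear as C in the sequence. A read with such a T>C conversion is counted here as nascent RNA, all reads of a gene as total RNA, and T>C reads as a percent of all reads as the labelled share. The 5 groups, of 2 libraries each, were cells with no inhibitor (control) and cells kept for 4 h in SRPIN340 at 20 μM, an inhibitor of the splicing kinase SRPK1, in Endovion (SCO-101) at 50 μM, which the study uses as an SRPK1 inhibitor, in THZ531, an inhibitor of the transcription kinase CDK12, or in THZ531 and Endovion together. The dose of THZ531 is 100 nM in the methods and 150 nM in the description of the series, and the methods give 100 nM and 50 μM for the combination. The methods also name a combination of SRPIN340 with THZ531, but none of the 10 libraries is of that group. All groups received 4sU, so that T>C reads from sequencing errors or from variants of the cell line were not measured separately. The comparisons ask how each inhibitor changed the making and the amount of KLF mRNAs, and whether Endovion changed the response to THZ531.

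The libraries held 19315398 to 30047663 reads and 1011591 to 1576102 T>C reads on genes. The labelled share over all genes was 5.70% and 5.63% in the control libraries and 5.04% to 5.63% in the treated ones. All 9 markers of luminal prostate cells had reads in every library, while CD3E, COL1A2 and VWF, markers of T cells, fibroblasts and endothelium, were at 0 in all libraries. COL1A1, the other fibroblast marker, had 40 to 83 reads. PTPRC, a leukocyte marker, and PECAM1, the other endothelial marker, were each at 0 in 9 libraries, with at most 6 and 1 reads. The labels do not say that the 2 libraries of a group came from separate cultures, so that p-values measure only the spread between these libraries. In a bulk sample, fewer cells with an mRNA and less of it per cell cannot be told apart.

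Of the 9 KLF genes, 8 had enough reads for testing, both for nascent and for total RNA. KLF13, a member that recruits SIN3A, had 2 reads in the first THZ531 library, none in the other libraries and no T>C read, and was left out of every test. Its only interval was exon 2 of its main transcript, chr15:31372300-31377899 in hg38. The main intervals of the other members lay in the last exon of their transcript, at chr9:107484852-107485750 for KLF4, chr13:73075887-73077542 for KLF5, chr10:3775997-3779552 for KLF6, chr9:70384597-70387775 for KLF9, chr2:10052508-10054836 for KLF11, chr19:1852399-1854458 for KLF16 and exon 4 of the main KLF10 transcript on chromosome 8. KLF6 had a second interval, chr10:3780327-3781470 in intron 2 of its main transcript, with 3 reads over all libraries, which are part of its sums. KLF3 had many reads at each of 2 ends, described further on. The intervals of KLF11 and KLF16 overlap an unnamed gene on the opposite strand (ENSG00000271787 and ENSG00000267125), and since no source says whether counting used strand, reads of these pairs may not be separated.

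Total RNA of most KLF genes was higher after THZ531. A gene is said to have risen or fallen at a Benjamini-Hochberg adjusted p under 0.05 over all genes tested in edgeR's quasi-likelihood test, and changes are log2 fold changes with their standard error (SE). With THZ531, 6 of 8 KLF genes rose and none fell, against 16.6% of 14689 genes tested that rose. With THZ531 and Endovion the same 6 of 8 rose, KLF3, KLF4, KLF5, KLF9, KLF10 and KLF11, again beside 16.6% of all genes. The median log2 change of the 8 was 0.70 with THZ531 and 1.04 with the combination, where the medians over all genes were -0.01 and -0.002. SRPIN340 raised KLF3 and KLF4, 2 of 8, beside 1.82% of all genes, and Endovion raised these 2 as well, beside 8.90%. All 4 comparisons share the control libraries and are not independent of each other. The members were chosen with earlier results of these data known, so that these counts describe the 8 genes and do not test the family. The 6 include KLF3, whose last exon end alone was not called with THZ531 (adjusted p = 0.298 by edgeR) or the combination (0.0683).

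**Figure D1:**
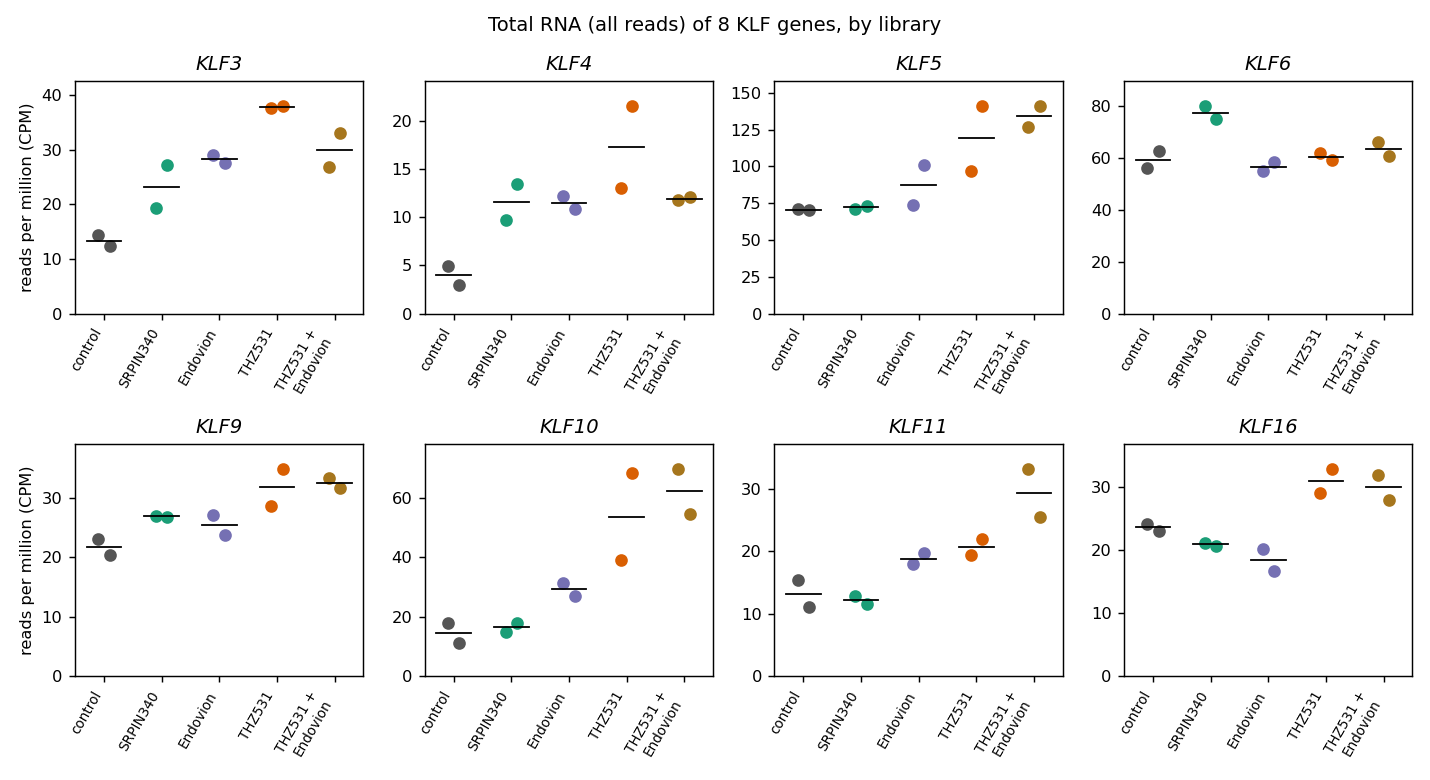
Total RNA of the 8 tested KLF genes, in CPM after TMM scaling, on an axis from 0 for each gene. Points are libraries and bars the means of the 2 libraries of a group. For KLF4 the control libraries sit at 4.96 and 2.99 and all treated libraries between 9.69 and 21.6, while the levels of KLF6 stay between 54.8 and 79.9 in all groups.

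KLF4, a zinc finger factor known for epithelial differentiation and for its use in reprogramming, rose in total RNA in all 4 comparisons. It had 139 and 71 reads in control cells, 259 and 426 with SRPIN340, 318 and 221 with Endovion, 356 and 402 with THZ531, and 270 and 231 with the combination. Scaled to library size (CPM, with TMM factors that centre most genes on no change), the means were 3.97 ± 1.39 in control, 11.6 ± 2.72 with SRPIN340, 11.5 ± 0.875 with Endovion, 17.3 ± 5.96 with THZ531 and 12 ± 0.173 with the combination (SD, n = 2 each). Every treated library lay above both control libraries, while Endovion, SRPIN340 and the combination did not differ beyond their spread. The log2 change was 1.54 (SE 0.28, adjusted p = 0.0226 by edgeR) with SRPIN340, 1.53 (SE 0.28, adjusted p = 0.00528) with Endovion, 2.11 (SE 0.28, adjusted p = 0.000109) with THZ531 and 1.58 (SE 0.28, adjusted p = 0.00102) with the combination. The calls with SRPIN340 and Endovion rest on the second control library, without which the adjusted p was 0.231 and 0.0706. Without the second SRPIN340 library it was 0.223 in the former comparison, with overlapping intervals summed plainly 0.0633 and in a fit of only the groups compared 0.116.

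KLF10, a SIN3A-recruiting repressor known as an early gene of the TGF-β response, had the largest fold change in total RNA with the combination among the 8. Reads were 505 and 266 in control, 399 and 564 with SRPIN340, 823 and 547 with Endovion, 1058 and 1274 with THZ531, and 1591 and 1041 with the combination. In CPM, control and SRPIN340 overlapped, Endovion lay above them at 29.3 ± 3.14, and THZ531 (53.7 ± 20.7) and the combination (62.1 ± 10.8) lay higher still and overlapped each other (SD, n = 2 each). The rise was 3.66-fold with THZ531 (log2 1.87, SE 0.30, adjusted p = 0.00225 by edgeR) and 4.24-fold with the combination (log2 2.09, SE 0.31, adjusted p = 0.00145). With Endovion alone the log2 change of 1.0 (SE 0.30) did not pass, at an adjusted p of 0.0667. This value depended on the fit, as DESeq2 gave 0.97 (adjusted p = 0.00202) and edgeR without the first control library 1.39 (adjusted p = 0.0205).

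KLF11, the closest relative of KLF10 in the family and also a SIN3A-binding repressor, had 432 and 261 reads in control, 346 and 361 with SRPIN340, 468 and 398 with Endovion, 527 and 408 with THZ531, and 758 and 485 with the combination. Without the first control library, Endovion gave a log2 change of 0.78 (adjusted p = 0.0246), which did not pass with it. KLF11 rose with THZ531 (log2 0.64, SE 0.19, adjusted p = 0.0191 by edgeR) and with the combination (log2 1.15, SE 0.19, adjusted p = 0.000537). KLF9, a glucocorticoid- and thyroid hormone-responsive repressor, had 644 and 483 reads in control, 778 and 650 with THZ531, and 761 and 604 with the combination. Its rise was the smallest of those that passed, with a log2 change of 0.55 (SE 0.15, adjusted p = 0.0114) and 0.59 (SE 0.15, adjusted p = 0.00856). KLF5 had 1985 and 1668 reads in control, 2635 and 2638 with THZ531, and 2897 and 2689 with the combination. Its log2 change was 0.76 (SE 0.17, adjusted p = 0.00486) with THZ531 and 0.93 (SE 0.17, adjusted p = 0.00156) with the combination. The THZ531 calls of these 3 genes rest on single libraries. Without the second control library the adjusted p was 0.232 for KLF11, 0.118 for KLF9 and 0.0531 for KLF5, and without the second THZ531 library it was 0.159, 0.201 and 0.105. In a fit of only the groups compared it was 0.0640 for KLF11 and 0.0577 for KLF9. With the combination, KLF9 also lost its call without the second control library (adjusted p = 0.105) or the first library of the combination (adjusted p = 0.0853).

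KLF6 and KLF16 passed in no comparison of total RNA. KLF6 reads were 1572 and 1484 in control, 2136 and 2351 with SRPIN340, 1432 and 1176 with Endovion, 1670 and 1104 with THZ531, and 1507 and 1162 with the combination. Only the SRPIN340 libraries, at a CPM of 77.3 ± 3.68, stood above control, at 59.2 ± 4.51 (SD, n = 2 each), with a log2 difference of 0.38 (SE 0.12, adjusted p = 0.101 by edgeR). KLF16, a repressor of the SIN3A-binding subgroup, had 678 and 547 reads in control, 564 and 653 with SRPIN340, 527 and 335 with Endovion, 787 and 613 with THZ531, and 728 and 535 with the combination. In CPM it was lower than control with Endovion, at 18.4 ± 2.54 against 23.6 ± 0.82, and higher with THZ531, at 30.9 ± 2.72 (SD, n = 2 each). Neither log2 difference passed, at -0.36 (SE 0.15, adjusted p = 0.143) and 0.39 (SE 0.15, adjusted p = 0.0631).

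**Figure D2:**
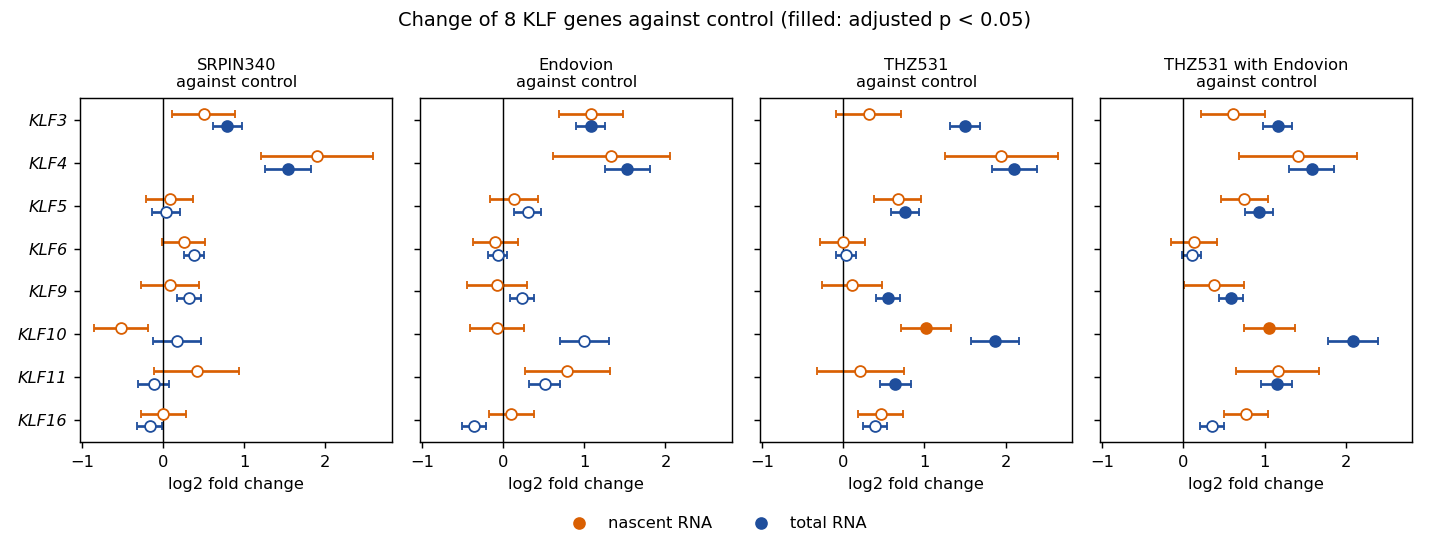
Log2 fold change against control of nascent RNA (orange) and total RNA (blue) for 8 KLF genes and 4 treatments, with bars of 1 SE. Filled points have an adjusted p under 0.05 by edgeR. Of the nascent values only KLF10 with THZ531 (1.02) and with the combination (1.06) is filled, while 6 total values are filled in each of these comparisons.

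KLF3, a factor of the CtBP-binding repressor group, rose in total RNA in all 4 comparisons when its reads were summed. The sums were 402 and 295 in control, 515 and 853 with SRPIN340, 757 and 557 with Endovion, 1021 and 708 with THZ531, and 610 and 631 with the combination. The log2 change was 0.79 (SE 0.18, adjusted p = 0.0377 by edgeR) with SRPIN340, 1.08 (SE 0.18, adjusted p = 0.00255) with Endovion, 1.50 (SE 0.18, adjusted p = 3.11e-05) with THZ531 and 1.16 (SE 0.18, adjusted p = 0.000275) with the combination. The SRPIN340 call was lost without the second control library (adjusted p = 0.378) or the second SRPIN340 library (adjusted p = 0.416), with the replicate number as a block (0.0600), with overlapping intervals summed plainly (0.0730) and in a fit of only the groups compared (0.143).

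These sums join 2 ends that do not overlap. The gene lies on the plus strand of chromosome 4, at chr4:38664197-38701517 in hg38. One interval is the end of the last exon, exon 6 of the main transcript, at chr4:38697264-38701042. The other, chr4:38689884-38690751, is the end of a short annotated transcript (ENST00000514033) that stops within intron 4 of the main one. Both ends carry the poly(A) signal AATAAA close to their last base, which is shown because the results for this gene turn on which end was used. The windows are read from hg38 on the transcribed strand, with the signal in capitals.
last exon end, chr4:38701008-38701037: tatatacttgttAATAAAaccatcagaata
intron 4 end, chr4:38690722-38690751: tcctccaacttgAATAAAtgttctacccac
Searched on the transcribed strand alone, AATAAA stood in the last 50 bases of 61.6% of the main intervals of the genes tested for total RNA, and AATAAA or ATTAAA in 75.7%. Of the other members, KLF4, KLF5, KLF6, KLF9, KLF10 and KLF13 hold AATAAA there, KLF16 holds ATTAAA and KLF11 holds neither.

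Reads at the intron 4 end were found mainly after THZ531. It had 6 and 4 reads in control, 2 and 5 with SRPIN340, and 15 and 2 with Endovion, but 522 and 437 with THZ531 and 224 and 222 with the combination. The last exon end had 396 and 291 reads in control, 513 and 848 with SRPIN340, 742 and 555 with Endovion, 499 and 271 with THZ531, and 386 and 409 with the combination. The intron 4 end thus held 51.1% and 61.7% of KLF3 reads in the THZ531 libraries (Wilson 95% intervals 48.1% to 54.2% and 58.1% to 65.2%) and 36.7% and 35.2% in the combination libraries (33.0% to 40.6% and 31.6% to 39.0%). In the control, SRPIN340 and Endovion libraries it held 0.359% to 1.98%. Such intervals cover counting error only.

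**Figure D3:**
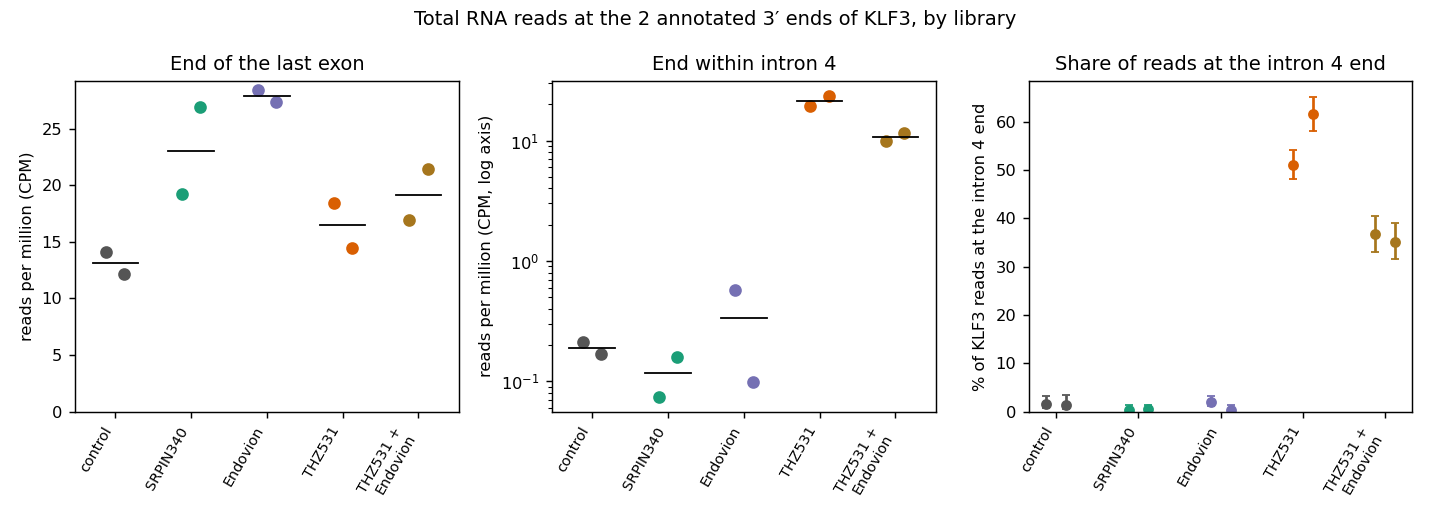
Total RNA reads at the last exon end (left, CPM) and at the intron 4 end (middle, CPM on a log axis) of KLF3, and the percent of KLF3 reads at the intron 4 end (right, bars are Wilson 95% intervals). Points are libraries and black bars group means. The intron 4 end sits at a CPM of 0.0748 to 0.574 in the libraries without THZ531 and at 9.82 to 23.4 with it.

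The split by end was chosen after these counts were seen. In a fit over 17458 intervals, the intron 4 end rose with THZ531 by a log2 change of 6.71 (SE 0.44, adjusted p = 2.78e-08 by edgeR), beside 15.4% of intervals that rose, and with the combination by 5.72 (SE 0.44, adjusted p = 3.44e-07), beside 14.9%. Leaving out single libraries gave 6.58 to 6.92 and 5.59 to 5.92. With SRPIN340 and Endovion its log2 difference was -0.70 (SE 0.76, adjusted p = 0.667) and 0.85 (SE 0.64, adjusted p = 0.424), beside 1.03% and 6.84% of intervals that rose. The last exon end rose with Endovion, by 1.05 (SE 0.19, adjusted p = 0.00407). For the other treatments it gave 0.76 (SE 0.19, adjusted p = 0.0600) with SRPIN340, 0.28 (SE 0.20, adjusted p = 0.298) with THZ531 and 0.49 (SE 0.20, adjusted p = 0.0683) with the combination. The rise of summed KLF3 RNA in both THZ531 groups was therefore not called at the last exon end alone.

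Use of the intron 4 end relative to the whole gene was tested across 5000 intervals of 2146 genes with more than 1 tested interval (diffSpliceDGE in edgeR). It differed from control with THZ531, by a log2 difference of 3.64 from the gene (adjusted p = 2.25e-09), beside 15.0% of intervals called, and with the combination, by 3.19 (adjusted p = 5.53e-08), beside 9.24%. With SRPIN340 and Endovion the adjusted p was 0.865 and 1, beside 0.0400% and 1.44% of intervals called. Between the combination and THZ531 alone, the difference in use was -0.45 (unadjusted p = 0.0351, adjusted p = 0.634), beside 0.100% of intervals called. The reads of the intron 4 end itself, in the fit over 17458 intervals, gave a log2 difference of -1.0 between these groups (SE 0.29, unadjusted p = 0.00281, adjusted p = 0.124 by edgeR), beside 0.241% of intervals that fell. Neither difference with added Endovion passed.

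Of the 8 members tested in nascent RNA, only KLF10 was called. With THZ531, KLF10 rose, 1 of 8 KLF genes, against 3.86% of 9946 genes tested that rose, and with the combination KLF10 rose again, beside 4.61%. None of the 8 rose or fell with SRPIN340 or with Endovion by edgeR, where 0.845% and 2.04% of all genes rose. DESeq2 called none in any of these comparisons. The median log2 change of the 8 was 0.16 with SRPIN340, 0.11 with Endovion, 0.39 with THZ531 and 0.76 with the combination, and the medians over all genes lay between -0.02 and -0.01. By the threshold of the methods, an unadjusted p under 0.05 and a log2 change of at least 1 in size, KLF4 was higher with SRPIN340, KLF3 with Endovion, KLF4 and KLF10 with THZ531, and KLF10 and KLF11 with the combination. The shares of all genes higher by that threshold were 3.34%, 4.78%, 5.66% and 6.19%.

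**Figure D4:**
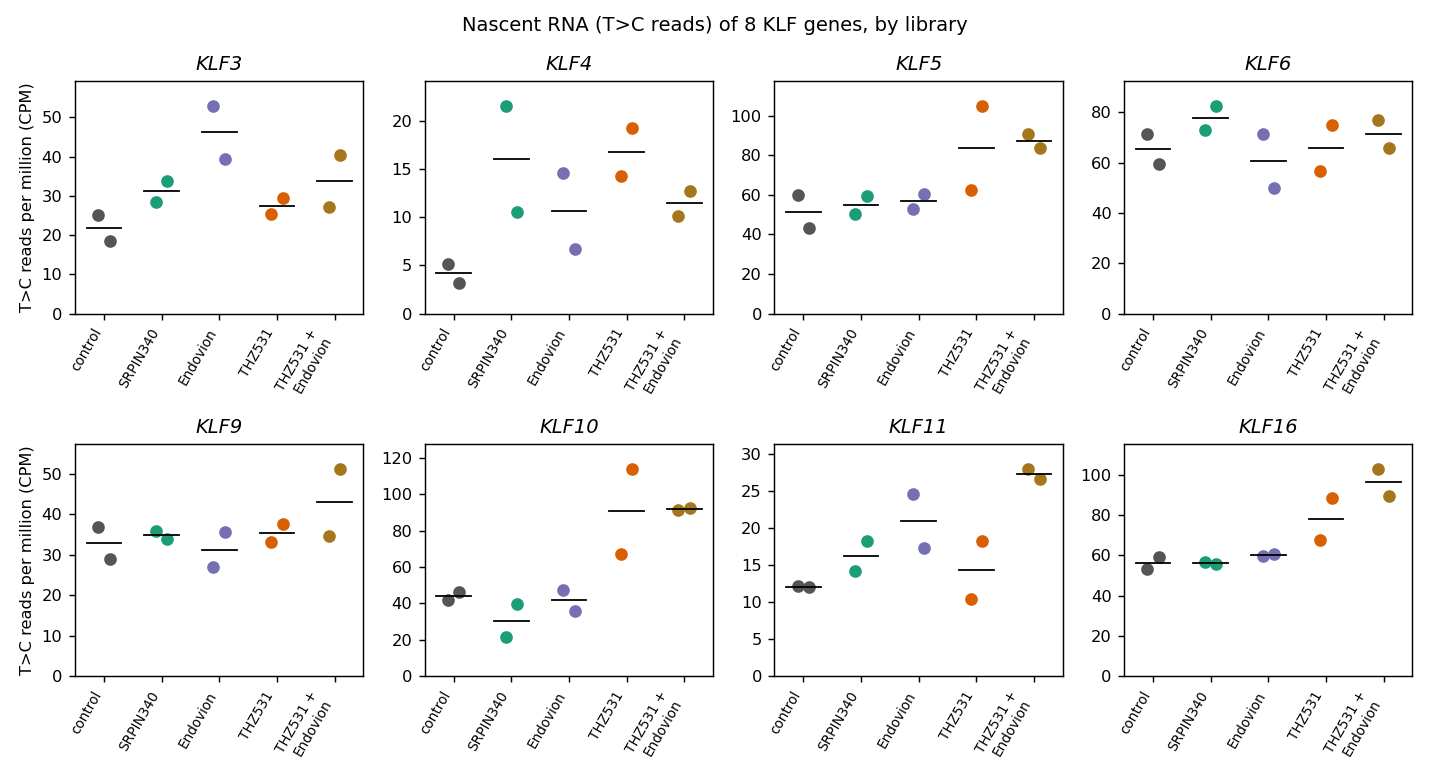
Nascent RNA of the 8 tested KLF genes, in CPM of T>C reads after TMM scaling, on an axis from 0 for each gene. Points are libraries and bars the means of the 2 libraries of a group. For KLF10 the THZ531 libraries sit at 67.0 and 114 and those of the combination at 91.5 and 92.5, above both control libraries at 41.8 and 46.5.

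KLF10 had 65 and 58 T>C reads in control, 32 and 63 with SRPIN340, 62 and 37 with Endovion, 103 and 112 with THZ531, and 108 and 94 with the combination. Scaled to CPM of T>C reads, the mean was 44.2 ± 3.32 in control, 90.5 ± 33.1 with THZ531 and 92.0 ± 0.691 with the combination (SD, n = 2 each). Endovion overlapped with control, both SRPIN340 libraries lay below control at 21.6 and 39.4, and the groups that received THZ531 overlapped each other. The rise was 2.02-fold with THZ531 (log2 1.02, SE 0.31, adjusted p = 0.0294 by edgeR), 2.08-fold with the combination (log2 1.06, SE 0.31, adjusted p = 0.0207) and 2.20-fold for the combination over Endovion alone (log2 1.13, SE 0.32, adjusted p = 0.0499), where 0.452% of all genes rose. These calls are close to the threshold. With DESeq2 the adjusted p was 0.0660, 0.0512 and 0.131. Without the first or the second control library it was 0.124 and 0.0899 for THZ531, and 0.1 and 0.0754 for the combination. Without the second THZ531 library the log2 change was 0.60 (adjusted p = 0.481). Leaving out either library of the combination gave an adjusted p of 0.121 and 0.0897 against control, and 0.303 and 0.204 against Endovion, and leaving out either Endovion library gave 0.190 and 0.421.

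The other members did not pass in nascent RNA. KLF4, with few T>C reads, had 8 and 4 in control, 32 and 17 with SRPIN340, 19 and 7 with Endovion, 22 and 19 with THZ531, and 12 and 13 with the combination. All treated libraries were above both control libraries in CPM of T>C reads. The log2 differences were 1.90 (SE 0.69, adjusted p = 0.230 by edgeR), 1.33 (SE 0.72, adjusted p = 0.409), 1.95 (SE 0.70, adjusted p = 0.0753) and 1.41 (SE 0.73, adjusted p = 0.250). KLF5 had 93 and 54 T>C reads in control, 74 and 95 with SRPIN340, 69 and 63 with Endovion, 96 and 103 with THZ531, and 107 and 85 with the combination. Its log2 differences were 0.67 (SE 0.29, adjusted p = 0.156) with THZ531 and 0.75 (SE 0.29, adjusted p = 0.1) with the combination. KLF16 had 83 and 74 T>C reads in control, 84 and 89 with SRPIN340, 78 and 63 with Endovion, 104 and 87 with THZ531, and 121 and 91 with the combination. Both combination libraries exceeded every other library in CPM of T>C reads, with a log2 difference from control of 0.77 (SE 0.27, adjusted p = 0.0682).

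KLF3 had 39 and 23 T>C reads in control, 42 and 54 with SRPIN340, 69 and 41 with Endovion, 39 and 29 with THZ531, and 32 and 41 with the combination. The Endovion libraries were the highest on average, at a log2 difference of 1.08 (SE 0.39, adjusted p = 0.143 by edgeR), and the THZ531 libraries lay just above control, at 0.31 (SE 0.40, adjusted p = 0.730). Of these T>C reads, the intron 4 end held 2 and 0 in control, 15 and 15 with THZ531, 9 and 11 with the combination, and none with SRPIN340 or Endovion. KLF11 had 19 and 15 T>C reads in the control and 33 and 27 in the combination libraries, a log2 difference of 1.16 (SE 0.51, adjusted p = 0.165). KLF6 had 52 to 132 T>C reads per library and KLF9 35 to 57, and their log2 differences lay between -0.10 and 0.38 with adjusted p-values of 0.606 to 0.994.

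When Endovion was added to THZ531, no KLF gene differed from THZ531 alone past the threshold in nascent RNA. Between the combination and THZ531, the 8 log2 differences ran from -0.54 for KLF4 (SE 0.65) to 0.96 for KLF11 (SE 0.52), with a median of 0.21. None of the 8 had an unadjusted p under 0.05 in this comparison, in which 0.141% of all genes rose and 0.181% fell. The interaction of THZ531 and Endovion, which asks whether the effects on the log2 scale differ from their sum, was called for none of the 8 and for 0.302% of all genes. None of the 8 passed at an unadjusted p under 0.05 either, and the values ran from -1.87 for KLF4 (SE 0.97, unadjusted p = 0.0585) to 0.36. For KLF10 the interaction was 0.12 (SE 0.44).

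The labelled share relates newly made RNA to the total. In control cells it was highest for KLF10, at 12.9% and 21.8%, and for KLF16, at 12.2% and 13.5%. Over the pooled control libraries these shares, 16% and 12.8%, exceeded those of 93.9% and 89.8% of the tested genes, whose median was 5.19%. The lowest was KLF5 at 4.69% and 3.24%. Deposited conversions divided by T>C reads gave 1 to 1.10 for KLF16 in every library, and 1.48 and 2.24 for KLF10 in control. Over all genes this ratio was 0.967 to 1.01. A value below 1 cannot arise if each T>C read adds at least 1 conversion, so the ratio is not conversions per read. In control KLF4 (2.25 and 2.75), KLF6 (2.32 and 1.68) and KLF9 (2.65 and 1.28) were also above the ratio over all genes. KLF3 (1 and 1.09), KLF5 (1.04 and 0.815) and KLF11 (1 and 1.53) had at least 1 control library near it. Whether a sequence variant adds to the T>C reads of KLF16 was not tested.

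No KLF gene passed for a change in labelled share, where 0.161% (SRPIN340), 0.453% (Endovion), 0.362% (THZ531) and 1.02% (combination) of 9943 genes were called. KLF10 had the largest differences with SRPIN340, Endovion and the combination, and KLF3 with THZ531. The share of KLF10 was 8.02% and 11.2% with SRPIN340, 7.53% and 6.76% with Endovion, 9.74% and 8.79% with THZ531, and 6.79% and 9.03% with the combination, all below both control libraries. On the log2 scale of T>C over unconverted reads the differences were -0.81 (SE 0.36, unadjusted p = 0.0312, adjusted p = 0.549 by edgeR), -1.20 (SE 0.36, unadjusted p = 0.00187, adjusted p = 0.157), -0.89 (SE 0.34, unadjusted p = 0.0130, adjusted p = 0.321) and -1.09 (SE 0.34, unadjusted p = 0.00282, adjusted p = 0.117). The control libraries also differed from each other, 505 total reads with 65 T>C reads against 266 with 58. Without the first control library the differences with Endovion and with the combination were -1.70 (adjusted p = 0.0250) and -1.60 (adjusted p = 0.0219). With limma on log2 shares they also passed, at -1.22 (adjusted p = 0.0474) and -1.12 (adjusted p = 0.0485). KLF3 had shares of 9.70% and 7.80% in control and 3.82% and 4.10% with THZ531, a log2 difference of -1.15 (SE 0.41, unadjusted p = 0.00825, adjusted p = 0.294). Over the THZ531 libraries 30 of 959 reads at its intron 4 end were T>C reads, 3.13%, and at the last exon end it was 4.94%, where control had 8.73%. For KLF16 the share was higher than in control in both Endovion libraries (14.8% and 18.8%) and both combination libraries (16.6% and 17.0%), at a log2 difference of 0.60 in each (SE 0.33 and 0.32, adjusted p = 0.600 and 0.473).

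**Figure D5:**
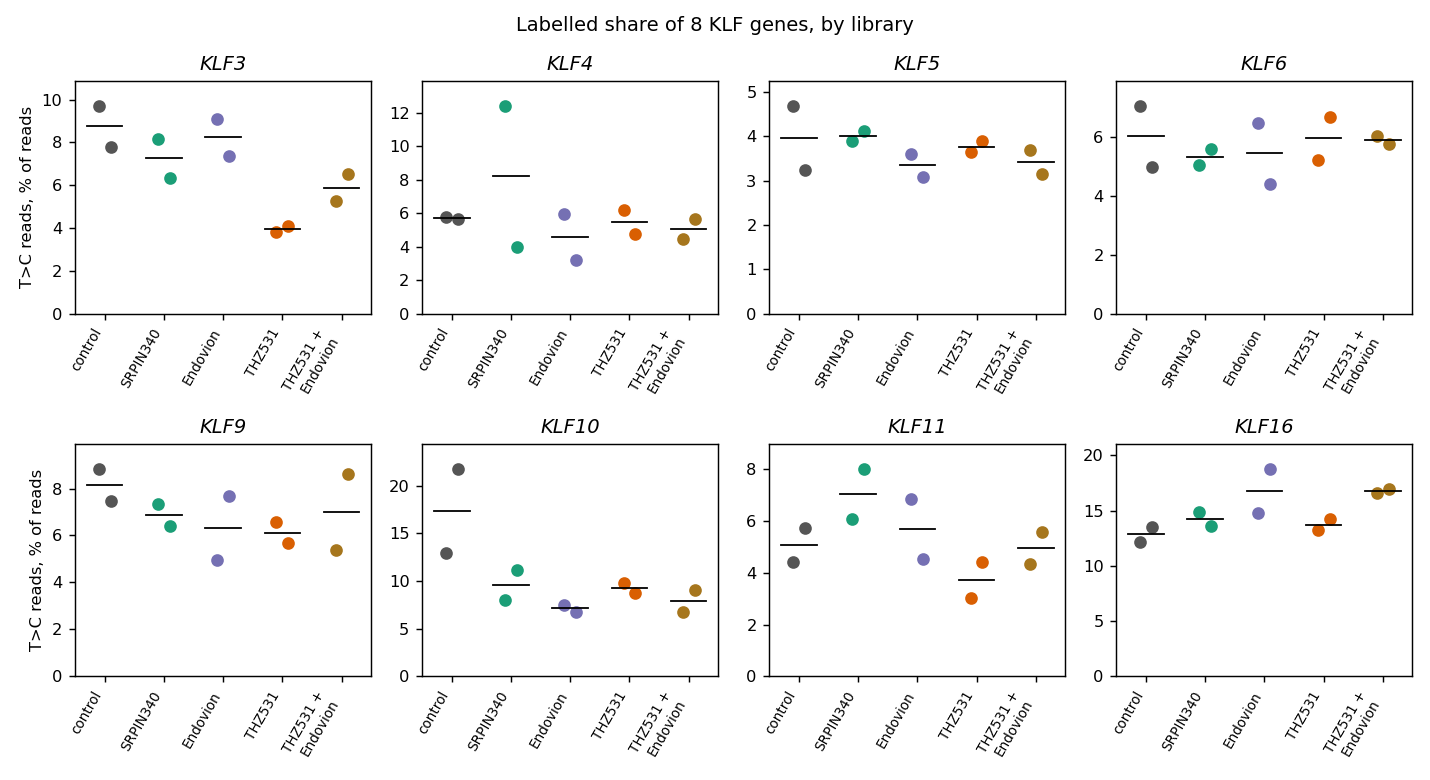
Labelled share of the 8 tested KLF genes, T>C reads as a percent of all reads of the gene, on an axis from 0 for each gene. Points are libraries and bars the means of the 2 libraries of a group. KLF10 sits at 12.9% and 21.8% in control and at 6.76% to 11.2% in the treated libraries, and KLF3 at 9.70% and 7.80% in control and at 3.82% and 4.10% with THZ531, and neither difference passed the test.

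ATTTA, a pentamer found in unstable mRNAs, was counted in the 3′ end intervals of the 8 genes. On the transcribed strand, the last 500 bases held 2 copies in KLF3 (last exon end), KLF4, KLF5, KLF9, KLF10 and KLF11, 1 copy in KLF16 and none in KLF6. The intron 4 end of KLF3 held none there either. Over 10678 intervals of at least 500 bases the median in this window was 1, 63.3% had at least 1 copy and 16% had 3 or more. The longer element TTATTTATT, which contains ATTTA, stood in KLF5 and in 3.01% of those intervals. Over whole intervals KLF6 held 6 copies of ATTTA, 1.69 per kb, and the 8 genes ran from 0.971 (KLF16) to 3.02 (KLF5) per kb. The median over the main intervals of the genes tested for total RNA was 1.57 per kb.

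Among the 18 other genes of the KLF and SP family, 8 were tested for nascent and 11 for total RNA. SP1, a ubiquitous activator that binds the same GC-rich boxes, rose in nascent RNA with THZ531 from 32 and 20 to 83 and 67 T>C reads (log2 1.72, SE 0.40, adjusted p = 0.00291 by edgeR) and with the combination to 44 and 62 (log2 1.40, SE 0.41, adjusted p = 0.0196). KLF7, a factor of neuronal development, rose in nascent RNA with Endovion, from 27 and 27 to 67 and 52 T>C reads (log2 1.38, SE 0.40, adjusted p = 0.0391). In total RNA 2 of 11 rose with SRPIN340 and 4 with Endovion, beside 1.82% and 8.90% of all genes. With THZ531 4 rose and 1 fell, and with the combination 5 rose and 1 fell, beside 16.6% of all genes that rose in each and 14.1% and 12.4% that fell. KLF2, a factor of quiescence in endothelium and lymphocytes, rose with THZ531 (log2 1.85, SE 0.27, adjusted p = 0.00019) and with the combination (log2 1.90, SE 0.27, adjusted p = 0.000184). KLF15, a metabolic regulator, rose with SRPIN340 (log2 1.05, SE 0.23, adjusted p = 0.0355) and fell with THZ531, from 211 and 145 to 78 and 68 reads (log2 -1.07, SE 0.25, adjusted p = 0.00446). It was also the gene that fell with the combination (log2 -0.85, SE 0.25, adjusted p = 0.0170), and is named there because the count is 1. Its SRPIN340 call was lost without the second control library (adjusted p = 0.378) or either SRPIN340 library (0.0548 and 0.314), and the KLF7 call without any single control or Endovion library (0.140 to 0.232). SP1 lost its calls without the second control library (adjusted p = 0.0503 with THZ531 and 0.151 with the combination) or the second library of the treated group (0.0687 and 0.263).

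Of 13 cofactors through which KLFs act, 4 rose in total RNA with THZ531, beside 16.6% of all genes. SIN3A, the scaffold bound by KLF9, KLF10, KLF11, KLF13 and KLF16, rose in total RNA with Endovion (log2 0.53, SE 0.14, adjusted p = 0.0234 by edgeR), THZ531 (log2 0.56, SE 0.14, adjusted p = 0.00692) and the combination (log2 0.98, SE 0.14, adjusted p = 0.000159). The Endovion and THZ531 calls of SIN3A were lost without the second control library (adjusted p = 0.280 and 0.0990), and so was that with Endovion without either Endovion library (0.191 and 0.0527) and that with THZ531 without the second THZ531 library (0.107). Where overlapping intervals were summed plainly, the log2 change of SIN3A with THZ531 was 0.24 (adjusted p = 0.205). Among 11 genes of KLF protein turnover and modification, SIAH1, a ubiquitin ligase, rose in nascent RNA with the combination (log2 1.18, SE 0.37, adjusted p = 0.0310), a call lost without the second control library (adjusted p = 0.274) or the first library of the combination (0.439), and with DESeq2 (0.0672).

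Of 25 genes known as KLF targets, 21 were tested in nascent RNA. With SRPIN340 2 rose, with Endovion 3 rose and 1 fell, and with THZ531 and with the combination 3 rose and 2 fell, while the list's medians lay between -0.04 and 0.16. Over all genes 0.845%, 2.04%, 3.86% and 4.61% rose in these comparisons, and 0.623%, 3.60% and 3.49% fell with Endovion, THZ531 and the combination. CDH1, the epithelial cadherin, rose with all 4 treatments, by log2 0.99 (SE 0.19) with SRPIN340, 1.13 (SE 0.19) with Endovion, 1.08 (SE 0.19) with THZ531 and 1.09 (SE 0.19) with the combination, with adjusted p-values by edgeR from 5.32e-05 to 0.00121. Its interaction was -1.11 (SE 0.27, adjusted p = 0.0416), so that the rise with both compounds was smaller than the sum of the separate ones. Its adjusted p was 0.0978 to 0.461 without the second control library, the second THZ531 library or either library of Endovion or of the combination, 0.0826 with DESeq2 and 0.0508 in a fit of only the groups compared. The control libraries differed at CDH1, with 280 and 128 T>C reads, and without the second one the rise with SRPIN340 did not pass (log2 0.65, adjusted p = 0.271). CDKN1B, a cell cycle inhibitor, fell with THZ531, from 342 and 295 to 177 and 109 T>C reads (log2 -1.01, SE 0.19, adjusted p = 0.000164), and KRT19, a keratin, fell with Endovion, from 244 and 240 to 80 and 83 (log2 -1.31, SE 0.26, adjusted p = 0.000654, and 0.0819 without the first Endovion library).

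Of 17 growth factor and early response genes, 14 were tested in nascent RNA, 3 rose with THZ531, and 2 rose and 1 fell with the combination, beside 3.86% and 4.61% of all genes that rose and 3.49% that fell with the combination. ZFP36L1, which binds AU-rich elements, rose with THZ531 (log2 0.91, SE 0.17, adjusted p = 0.000153 by edgeR). IER5, an early response gene, rose with THZ531 (log2 0.66, SE 0.20, adjusted p = 0.0304) and with the combination (log2 0.79, SE 0.20, adjusted p = 0.00651). SKIL, an inhibitor of TGF-β signaling, fell with the combination (log2 -1.51, SE 0.48, adjusted p = 0.0354), where its control libraries held 88 and 20 T>C reads, and without the first one the log2 difference was -0.31 (adjusted p = 0.820). The call of IER5 with THZ531 was lost without the first control library (adjusted p = 0.266) or the second THZ531 library (0.514), and with the combination without the first control library (0.117) or the first library of the combination (0.183). In total RNA 7 of 16 rose and 1 fell with THZ531 and likewise with the combination, beside 16.6% of all genes that rose in each and 14.1% and 12.4% that fell. Across the 10 libraries the genes whose T>C level on the log2 scale was most like that of KLF10 were IER5 (Pearson r = 0.935), CLPTM1 (r = 0.926) and CDK2AP1 (r = 0.918), out of 4089 genes with a mean of at least 50 T>C reads, and these points share the library scaling.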

How the data were processed

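SLAM-DUNK was run by the authors on the 3′ end reads. The deposited tables give, per 3′ UTR interval, raw counts (reads, T>C reads, conversions, covered T positions) with no scaling. The deposited conversion rate, a fraction of covered T positions, was not used. The submitters' processing notes also name Bowtie2 2.3.4.1, SAMtools 1.6 and DESeq2 1.38.2. The conversions a read needed, the use of the molecular identifiers in counting, and strand use are not given in the sources used here. T content equalled hg38 in 100% of 14692 intervals.

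Of 104653 intervals, 92826 on main chromosomes matched GENCODE v44, and 3.53% of T>C reads lay on others. Where intervals of a gene overlapped, the interval with most reads was kept, since 48.8% of T>C reads in a plain sum were counted again, which left 57382 intervals in 31015 genes. Counts went into edgeR 4.0.16 under R 4.3.3 (TMM, filterByExpr, robust quasi-likelihood fit of group means over all 10 libraries, Benjamini-Hochberg over all genes). The labelled share was tested as T>C against unconverted reads with the library as a block. A plain sum per gene, which the test design named, is given as an alternative beside DESeq2 1.42.0, limma 3.58.1 on log2 shares (pseudocount 0.5), other scalings and filters, the replicate block, and each library left out. Scripts were tested on simulated data. Replicate libraries differed beyond counting noise (chi-square over degrees of freedom, 3.38 to 4.66).

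The members and gene lists were chosen with earlier results of these data known. All 9 members are named. Apart from KLF15 with the combination, genes named from a list are among the 3 of smallest p called in a comparison. Not all of those 3 are named, so the genes named are not always the strongest. Among the KLF targets in nascent RNA, JUN had the smallest p with the combination and PDK4 with SRPIN340, and neither is described. An exact permutation test of 2 against 2 libraries cannot go below p = 0.333 and was not used. Some results for the cofactor and protein turnover lists are not reported here.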

Additional observations from a re-analysis of the deposited data

Results flagged for a closer look

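CDH1 stood out because the nascent RNA response to THZ531 differed between cells with and without Endovion, by the interaction term of edgeR (log2 -1.11, SE 0.27, adjusted p = 0.0416). The call was lost in 10 of the alternatives run and its direction was kept in all of them.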

How the results depend on the processing

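The direction of every KLF value called against its group was the same under all alternatives run, and none reversed. Of 232 values of called genes under alternatives, 184 stayed past the threshold and 48 did not. In nascent RNA, DESeq2 and the plain sum of overlapping intervals called 0 of 8 genes, in place of 1, for THZ531 and for the combination against control and for the combination against Endovion, and a fit of only the groups compared called 0 for THZ531 and for the combination against Endovion. By the unadjusted threshold of the methods, 1 was called for SRPIN340, 1 for Endovion, 2 for THZ531 and 2 for the combination. Leaving out single libraries gave 0 to 1 genes for THZ531 and 0 for the combination against control and against Endovion. In total RNA, SRPIN340 gave 2 genes in the main test, 1 by the unadjusted threshold, 0 with the plain sum, 1 with the replicate block, 0 with only the groups compared, and 0 to 2 without single libraries. Endovion gave 1 to 4 and THZ531 3 to 6 without single libraries, and THZ531 gave 3 by the unadjusted threshold. By the unadjusted threshold, 3.61% of all genes were higher in total RNA with SRPIN340 and 6.94% with THZ531. For the labelled share, where no gene was called, 1 was called by the unadjusted threshold for Endovion, THZ531 and the combination. Of all genes, 3.61%, 4.42% and 4.60% were called by it in these comparisons, in either direction. By limma 1 was called for Endovion and the combination, with and without the replicate block, and 1 without a low-count filter for the combination. Leaving out single libraries gave 0 to 1 for Endovion and for the combination. KLF3 at its last exon end alone, an alternative added after seeing the data, passed with Endovion only, and its log2 change with THZ531 was 0.28 in place of 1.50.

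In nascent RNA, the correlation of the difference between replicates 1 and 2 lay between -0.0675 and 0.0581 over 10 pairs of groups. Counting noise lowers such correlations, so they do not settle whether replicate numbers pair the libraries. The replicate block changed no other count of KLF genes by over 1.5 times. Genes called in nascent RNA numbered 103 (2 to 214) for SRPIN340, 265 (46 to 401) for Endovion, 742 (241 to 768) for THZ531 and 806 (273 to 835) for the combination, where ranges run over the alternatives at an adjusted p. In total RNA they numbered 288 (3 to 1437), 1680 (226 to 2372), 4509 (2022 to 4758) and 4259 (2220 to 4530), and for the labelled share 16 (1 to 62), 45 (1 to 119), 36 (1 to 121) and 101 (3 to 233). KLF4 and KLF11 had the fewest T>C reads, 4 to 33 per library, which limits what could be seen in their nascent RNA.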
